A study of Mus musculus with 3 samples.

Results

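The genes described here encode the proteins of the cytosolic ribosome in mouse mammary tumour cells grown in collagen or Matrigel. They were chosen by symbol: names of the form Rpl or Rps followed by a number and at most one letter and a digit, plus Rpsa, Rplp0, Rplp1 and Rplp2, without the S6 kinase genes and without pseudogene names. The rule took 82 of the 20605 genes in the deposited matrix, 50 of the large subunit (Rpl and Rplp) and 32 of the small subunit (Rps and Rpsa). Together they held 18.7% of all unique molecular identifiers (UMIs, 1 per captured mRNA molecule). No measured value enters the rule, which was set with earlier results of these data known.

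The cells came from primary tumours of 4 C3(1)-Tag mice of the FVB strain, between 25 and 30 weeks old, in which the C3(1) promoter drives a viral T antigen in mammary epithelium. Tumour organoids were embedded in collagen I and tumour clusters in Matrigel, all in DMEM/F12 with ITS, PS and 2.5 nM FGF2, and collected after 12 hours (day 0), on day 3 and on day 5. Collagen gels were opened with collagenase and Matrigel with 10 mM EDTA on ice, so the matrix and the way of release cannot be told apart. Cells of the 4T1 mouse mammary cancer line, at passage 2 and grown on plastic in RPMI with FBS and PS, went into every pool. Each day is 1 pool and 1 labelled batch, so the day and the pool cannot be told apart, and the 4T1 cells serve below as the reference for the pool.

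Counts were summed over the cells of each mouse, matrix and day, and the mouse was the replicate. Of 7307 mouse-labelled cells 6970 were compared, after clusters of fibroblast-like, macrophage-like and lymphoid (T and NK-like) cells, 337 cells in all, had been left out. This gave 21 sums of at least 20 cells, with 1831436 to 46657709 UMIs each. Day 5 had collagen sums of mice 1, 2 and 3 and Matrigel sums of mice 2 and 3. No day 5 cell was labelled mouse 4. The compared cells carried the epithelial markers Epcam (1593 CPM, the count scaled to a fixed total of UMIs per sum), Krt18 (1510 CPM), Krt14 (1411 CPM) and Krt8 (1016 CPM), and among markers of the cell types left out, the 8 of macrophages summed to 26.5 CPM or less in every sum, the 7 of fibroblasts to 31.2 CPM or less and the 6 of T and NK cells to 80.8 CPM or less. Most of the last was Trbc2, with a UMI in 14.9% of the compared cells, while Cd3d, Cd3e and Cd3g stood at 0.04 CPM or less. Krt5, which marks basal cells, stood at 189 CPM. For 4T1, 313 cells were summed (98, 196 and 19 on days 0, 3 and 5), 1 sum per pool, so that nothing about 4T1 could be tested. Libraries shared 7 cell barcodes between days 0 and 3, none between days 0 and 5 and 4 between days 3 and 5.

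A ribosome is assembled in the nucleolus from ribosomal RNA and one copy of nearly every ribosomal protein, so these proteins are made in matched amounts. Their mRNAs typically begin with a C followed by a run of pyrimidines, the terminal oligopyrimidine tract, through which mTOR signalling and LARP1 set how strongly they are translated and how stable they are. A few genes are close copies of another ribosomal protein gene and encode a variant protein: Rps27l (a p53 target), Rpl22l1, Rpl39l, Rpl3l and Rpl7l1.

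The tract can be read at the annotated start of the genes. The windows here hold 15 bases before and 15 bases from the RefSeq transcription start (GRCm38.p6), written 5′ to 3′ on the strand of the gene, with the tract in capitals: a C at the start followed by at least 4 bases that are C or T, searched on that strand only. They are shown because members with and without the tract exactly at the start are found among both those that rose and those that fell between the pools. In the windows of Rpl13a and Rps27l such a run begins shortly after the start, so it is not in capitals.
Rpl35: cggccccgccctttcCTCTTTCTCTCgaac
Rps21: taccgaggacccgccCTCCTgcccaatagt
Rps18: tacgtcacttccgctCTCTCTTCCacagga
Rpl38: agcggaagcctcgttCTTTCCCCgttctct
Rpl13a: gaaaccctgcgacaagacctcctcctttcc
Rps27l: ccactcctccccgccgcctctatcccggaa
Rps28: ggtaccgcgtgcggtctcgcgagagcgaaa
Rpl41: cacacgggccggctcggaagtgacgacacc

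The windows lie at chr2:39005117-39005146 (Rpl35, minus strand), chr2:180257364-180257393 (Rps21, plus), chr17:33955651-33955680 (Rps18, minus), chr11:114668565-114668594 (Rpl38, plus), chr7:45128731-45128760 (Rpl13a, minus), chr9:66946071-66946100 (Rps27l, plus), chr17:33824548-33824577 (Rps28, minus) and chr10:128549154-128549183 (Rpl41, minus). Each spans the promoter and the first bases of the 5′ UTR. A RefSeq entry was found for 62 of the 82 members. The tract stood exactly at the start in 13 of them (21.0%), against 2.75% of 9673 other protein-coding genes tested and 2.67% of all 17492 protein-coding genes with an entry. With the C allowed up to 10 bases from the start, 38 members (61.3%) and 36.9% of the other tested genes had it. A match describes only the letters in this window.

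The UMIs were spread over many members. Among the leading genes were Rplp0, a protein of the ribosomal stalk (2.92% of the member UMIs), Rpl13 (2.70%), Rpsa (2.14%) and Rpl32 (2.12%). The first 10 genes held 22.5% and 28 genes held 50%. The variant genes Rpl3l and Rpl39l had 44 and 5 UMIs in the compared cells and were too low to test, which left 80 members among 13184 genes tested. For 47 members more than 50% of the 50-base words in the last 300 transcript bases also occur in a transcript of another gene, mostly processed copies, so their counts are uncertain. Among them, described below, are Rps28 (75.7%), Rpl41 (62.9%), Rps2 (57.0%), Rps18 (78.5%) and Rps4x (62.2%). For 21 members, among them Rplp0, Rpl13a, Rps27l and Rpl7l1, no word was shared.

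Ribosomal protein mRNAs took up a larger part of the UMIs in collagen than in Matrigel at 12 hours, and a smaller part on days 3 and 5. On day 0 the share was 17.5%, 17.5%, 18.1% and 18.8% in collagen (mice 1 to 4) and 15.8%, 14.5%, 17.1% and 13.1% in Matrigel. Every collagen sum lay above every Matrigel sum. The means were 17.98% ± 0.618 and 15.1% ± 1.73 (SD, n = 4 each), so collagen was higher by 2.85 percentage points (p = 0.0286 in an exact two-sided permutation test, the smallest that 4 against 4 can give, and 0.1 adjusted over the 7 comparisons of the share). None of the 7 passed 0.05 after adjustment, and with these numbers of mice none could have.

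On day 3 the share was 20.1%, 18.2%, 17.8% and 17.0% in collagen and 22.6%, 18.9%, 21.1% and 17.8% in Matrigel. The groups overlapped, but each mouse was lower in collagen. As a mean over cells of each cell's share, 3 of 4 mice were lower on day 3 (mouse 2 was 0.615 points higher), and the day 0 groups overlapped (difference 2.18 points, exact permutation p = 0.0857), with 4 of 4 mice higher in collagen. For the summed counts the day 3 means were 18.3% ± 1.31 in collagen and 20.1% ± 2.16 in Matrigel (SD, n = 4 each). Their difference of -1.84 points did not pass (exact permutation p = 0.2, adjusted 0.28). On day 5 the collagen sums stood at 17.9%, 16.7% and 15.7% (mice 1 to 3) and the Matrigel sums at 19.3% and 18.7% (mice 2 and 3), with no overlap. The means differed by -2.21 points, with an exact permutation p of 0.2, which is the smallest for 3 against 2.

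The matrix difference therefore changed sign between the pools. Taken within each mouse, collagen minus Matrigel was 1.71, 3.01, 0.974 and 5.71 points on day 0 (mice 1 to 4) and -2.55, -0.652, -3.31 and -0.836 points on day 3. It fell in 4 of 4 mice, with a mean change of -4.69 points (SD 1.27; exact sign-flip permutation p = 0.125, the smallest that 4 pairs can give). Between days 0 and 5 it fell in both mice 2 and 3, with a mean change of -4.75 points (SD 1.24; exact permutation p = 0.5). The collagen and Matrigel cells of a day shared a pool.

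**Figure D1:**
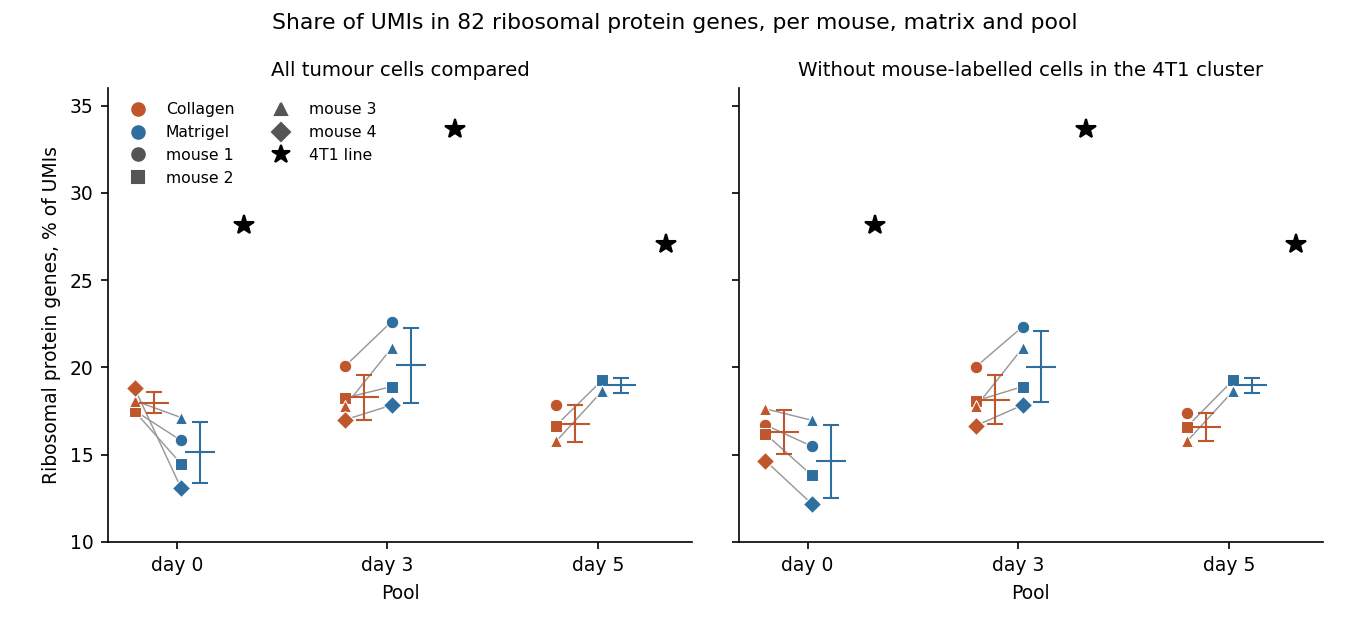
Share of UMIs in the 82 ribosomal protein genes (percent, vertical axis, starting at 10) by pool, for all cells compared (left) and without mouse-labelled cells in the 4T1 cluster (right); points are sums of 1 mouse and matrix, lines join the gels of 1 mouse, crosses are means ± SD and stars are 4T1. The collagen mean lies above Matrigel on day 0 and below it on days 3 and 5, and the 4T1 cells lie above all tumour sums, at 28.1%, 33.7% and 27.1%.

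Some day 0 sums held cells that clustered with 4T1. In collagen, 9.67%, 12.5%, 4.51% and 30.7% of the UMIs of mice 1 to 4 came from cells that carry a mouse label but lie in the 4T1 cluster, against 2.61%, 7.15%, 1.64% and 6.51% in Matrigel. Without those 56 cells the day 0 shares were 16.7%, 16.2%, 17.6% and 14.6% in collagen and 15.5%, 13.8%, 17.0% and 12.2% in Matrigel. The groups then overlapped, while each mouse was still higher in collagen, by 1.23, 2.36, 0.657 and 2.48 points. The change of the matrix difference to day 3 was -3.58 points (SD 0.342, 4 of 4 mice) without them.

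The UMI content of the cells also differed between the matrices on day 0. Cells of the 2 clusters with few UMIs made up 10.6%, 26.7%, 23.6% and 55.9% of the collagen cells and 5.76%, 9.06%, 8.38% and 28.1% of the Matrigel cells. Without them the share differences were 1.75, 2.95, 0.791 and 6.46 points on day 0 and stayed negative in all 4 mice on day 3. Mitochondrial UMIs made up 3.31% to 4.10% of the day 0 collagen sums and 1.92% to 3.18% of the Matrigel sums. The part of these differences in the share was not tested beyond the values given.

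The change over time differed between the gels. In Matrigel the share was higher on day 3 than on day 0 in all 4 mice, by 4.99 points on average and with no overlap (exact permutation p = 0.0286, adjusted 0.1). In collagen the mean moved by 0.302 points (exact permutation p = 0.743), higher in 2 of 4 mice, or by 1.85 points and higher in 4 of 4 mice without the cells of the 4T1 cluster. From day 3 to day 5 the collagen share was lower in all 3 mice with both days (difference of means -1.52 points, exact permutation p = 0.171). In Matrigel it was lower in 1 of 2 mice (-1.15 points, exact permutation p = 0.667). The 4T1 cells also peaked in the day 3 pool, at 33.7% (95% exact interval 33.66% to 33.71%, counting error only) against 28.1% on day 0 and 27.1% on day 5.

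A share cannot tell more ribosomal mRNA from less of the rest. Mean member UMIs per cell on day 0 were 3946, 3195, 3772 and 2194 in collagen and 4048, 3002, 3848 and 1478 in Matrigel, and the groups overlapped. The UMIs of all other genes were 18572, 15078, 17069 and 9471 per cell in collagen and 21556, 17732, 18621 and 9808 in Matrigel, lower in collagen in 4 of 4 mice. The median UMIs per cell of the sums ranged from 4330 to 24921 on day 0, from 26083 to 49470 on day 3 and from 52656 to 60985 on day 5. Within single sums, the rank correlation across cells between a cell's share and its UMI total ranged from -0.162 to 0.448, given as a description of cells that share a library.

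Both subunits followed the share. Large-subunit members made up 10.4% ± 0.265 of UMIs in collagen and 8.86% ± 1.06 in Matrigel on day 0, and small-subunit members 7.56% ± 0.381 and 6.27% ± 0.679 (SD, n = 4 each). On day 3 they were 10.7% ± 0.784 against 11.8% ± 1.20 for the large subunit and 7.58% ± 0.550 against 8.34% ± 0.998 for the small. The ratio of large to small stayed between 1.32 and 1.51 in all 21 tumour sums and between 1.28 and 1.37 in 4T1.

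Gene by gene, most members had the same sign between the matrices within a pool. On day 0, 77 of 80 had a positive log2 fold change of collagen over Matrigel, with a median of 0.22 against 0.01 over all genes tested. Without the cells of the 4T1 cluster 59 of 80 were positive on day 0, with a median of 0.07. On day 3, 78 of 80 were negative (median -0.15, all genes -0.01), and on day 5, 77 of 80 (median -0.23, all genes 0.00). The spread between members was narrow, with an SD of 0.14, 0.09 and 0.12 on the 3 days.

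Few members passed the test on their own. In edgeR's quasi-likelihood test, with Benjamini-Hochberg adjustment over all 13184 genes and a threshold of 0.05, 2 members were higher and 0 lower in collagen on day 0, against 4.16% of all genes higher and 2.88% lower. With the mouse as a block, 19 were higher and 1 lower, and without the cells of the 4T1 cluster none was called. The shares of all genes here and below are those of the main fit. The block lowered the common dispersion over all genes from 0.0853 to 0.0256. Its member counts have no share of all genes beside them, so they are not a result about the members alone. On day 3 no member was called in either direction (0.167% of all genes higher, 0.0379% lower), while 8 had an unadjusted p under 0.05, DESeq2 called 1 lower and the mouse block 3 lower. On day 5 no member was called either (0.356% of all genes higher, 0.137% lower), with 7 at an unadjusted p under 0.05 and none by DESeq2 or with the block.

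**Figure D2:**
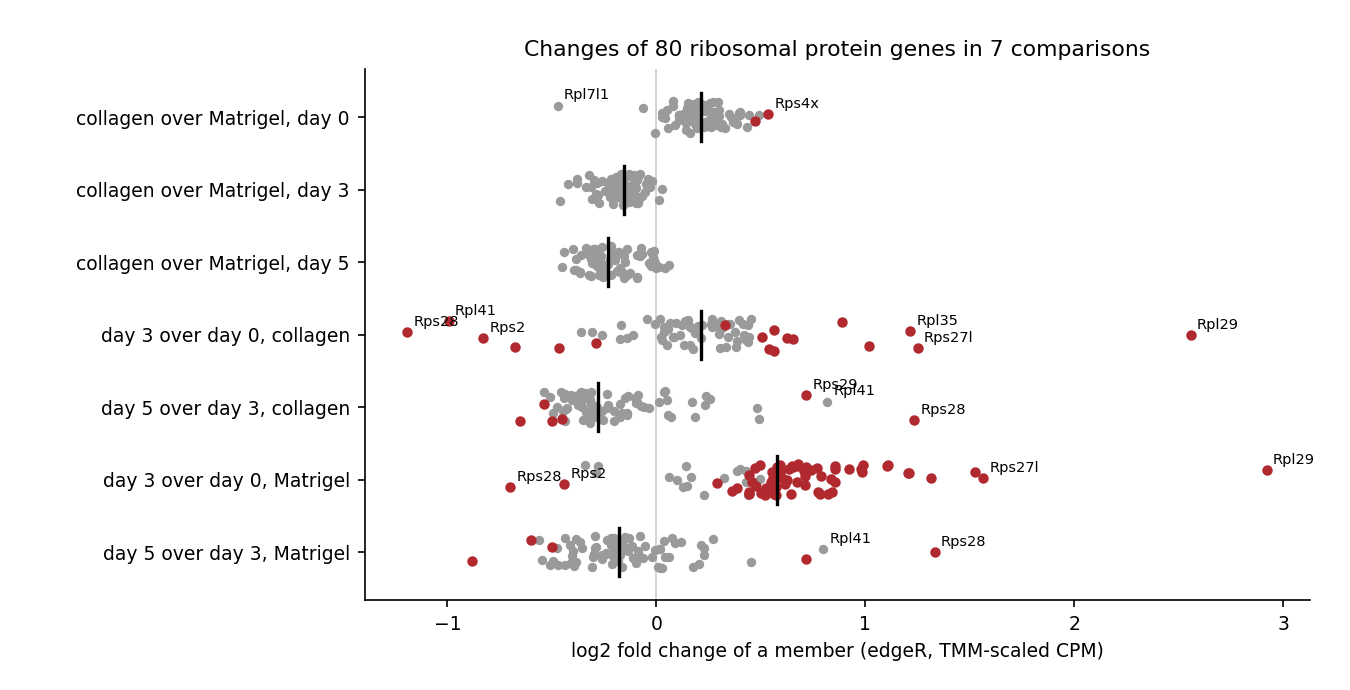
Log2 fold changes of the 80 tested members in each comparison (1 point per member, edgeR fit of summed counts, red where called at an adjusted p under 0.05, the bar being the median). The members lie in a narrow band for the matrix comparisons within a pool and spread more widely, with a few far from the rest, for the comparisons between days.

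The 2 members called on day 0 are both X-linked genes, while the X-linked members Rpl10 and Rpl36a were not called. Rps4x, which encodes the small-subunit protein eS4 (chrX:102184941-102189394, minus strand), stood at 2837, 2949, 3133 and 2897 CPM in collagen and 2208, 1842, 2615 and 1487 CPM in Matrigel. All collagen sums were above all Matrigel sums, a log2 fold change of 0.54 ± 0.16 (SE; edgeR adjusted p = 0.0437, n = 4 each). Rpl39, which encodes a short protein near the exit of the peptide tunnel (chrX:37082520-37085402, minus), stood at 2659, 2523, 2914 and 2760 CPM in collagen and 2098, 1750, 2427 and 1561 CPM in Matrigel. Its groups did not overlap either, with a log2 fold change of 0.47 ± 0.14 (SE; edgeR adjusted p = 0.0485). Both calls were lost when any 1 mouse was left out, with adjusted p from 0.06 to 0.31 for Rps4x and from 0.086 to 0.29 for Rpl39. Without the cells of the 4T1 cluster they were 0.134 and 0.191.

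To find members that departed from the rest, the fit was repeated with each sum's total of member UMIs as its library size, so that a member at 0 moved with the module. On this scale the median over all genes shifted, by -0.23, 0.13 and 0.22 for the matrix comparisons on days 0, 3 and 5. On day 0, 3 members were called, against 8.97% of all genes in either direction. Rps4x was 0.33 ± 0.07 and Rpl39 0.26 ± 0.07 above the module in collagen, and Rpl7l1 was 0.68 ± 0.15 below it (log2 ± SE; edgeR adjusted p = 0.0143, 0.0267 and 0.0118; each in 4 of 4 mice). All 3 were also called without the cells of the 4T1 cluster (adjusted p = 0.0102, 0.0285 and 0.0169). None of the 3 was called without mouse 1, mouse 2 or mouse 3, and 9 members were called with the mouse block. On days 3 and 5 no member departed from the module between the matrices (0.19% and 0.152% of all genes called), and with the mouse block 1 did on day 3.

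Rpl7l1 ran against the module on day 0. It encodes a relative of Rpl7 with a role in ribosome assembly (chr17:46773907-46782672, minus). Its level was 155, 136, 197 and 118 CPM in collagen and 219, 203, 265 and 152 CPM in Matrigel, lower in collagen in every mouse although the groups overlapped. Per total UMIs its log2 fold change of -0.47 ± 0.17 (SE) did not pass (edgeR adjusted p = 0.0918) except with the mouse block (0.00182). From day 0 to day 3 in Matrigel it was 0.82 ± 0.15 below the module (edgeR adjusted p = 0.000167), at 165, 154, 210 and 162 CPM on day 3.

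Between pools the members did not move as a block. From day 0 to day 3 in Matrigel, 61 members rose and 2 fell, against 19.4% of all genes higher and 19.7% lower, with a median log2 fold change of 0.58 (all genes -0.01) and 75 of 80 positive. Without mouse 2, 38 rose and 1 fell. In collagen over the same days 12 rose and 6 fell (9.33% of all genes higher, 10.2% lower), with a median of 0.21 and 65 of 80 positive. Without the cells of the 4T1 cluster 25 rose and 2 fell (median 0.44, 69 of 80 positive). Without TMM scaling, which moved the median of all genes to -0.17, 10 rose and 10 fell (median 0.05, 50 of 80 positive). With the mouse block 28 rose and 8 fell, and 10, 6, 11 and 32 members were called without mice 1, 2, 3 and 4. The SD between members was 0.48 in collagen and 0.47 in Matrigel, and the day and the pool cannot be told apart in these values.

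Between days 3 and 5 most members were lower. In collagen 2 rose and 4 fell (0.675% of all genes higher, 0.455% lower), with a median of -0.28 and 64 of 80 negative. With the mouse block 5 rose and 31 fell, and without TMM scaling 4 rose and 2 fell. In Matrigel 2 rose and 3 fell (1.46% of all genes higher, 1.05% lower), with a median of -0.18 and 59 of 80 negative, and 3 rose and 12 fell with the block, or 3 and 1 without TMM scaling. For collagen, 1 member was called without mouse 1, 2 or 3 and 12 were called without mouse 4, which has no day 5 sum. For Matrigel 3, 0, 1 and 12 were called without mice 1, 2, 3 and 4.

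The change of the matrix difference was also tested gene by gene, as an interaction. Between days 0 and 3, 79 of 80 members had a negative interaction (median -0.37, all genes -0.01), but none was called (0% of all genes higher, 0.0303% lower). For 25 the unadjusted p was under 0.05, DESeq2 called 1 and the mouse block 10, all lower. Without the cells of the 4T1 cluster the unadjusted p was under 0.05 for 3 members, with 79 of 80 negative and a median of -0.23. Between days 0 and 5, 78 of 80 were negative (median -0.44, all genes 0.02) and none was called (0.478% of all genes higher, 0.713% lower). For 23 the unadjusted p was under 0.05, DESeq2 called 3 and the mouse block 31, all lower. Without the cells of the 4T1 cluster the unadjusted p was under 0.05 for 7 members, with 78 of 80 negative and a median of -0.33. The shares of all genes are those of the main fit, and none is given for DESeq2 or the block.

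In both gels single members stood far from the rest. Relative to the module, 12 members rose and 10 fell from day 0 to day 3 in collagen (17.6% of all genes called) and 15 rose and 11 fell in Matrigel (49.4%). The median of all genes was -0.19 and -0.56 on that scale. With the mouse block 19 rose and 15 fell in collagen, and without 1 of mice 1, 2 or 3 the calls numbered 13, 8 and 13. From day 3 to day 5, 6 rose and 0 fell in collagen (2.2% of all genes) and 5 rose and 1 fell in Matrigel (2%), where the median of all genes was 0.22 and 0.11. With the block 12 rose and 12 fell in collagen and 11 rose and 7 fell in Matrigel. Without mice 3 and 4 there were 3 and 11 calls in collagen, and without mice 1, 2, 3 and 4 there were 3, 1, 2 and 10 in Matrigel.

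Rpl29 was the member furthest above the rest. It encodes a large-subunit protein that also binds heparin (chr9:106429454-106431568, plus). Its level in collagen was 134, 122, 120 and 155 CPM on day 0, 842, 721, 710 and 849 CPM on day 3, and 557, 494 and 438 CPM on day 5. Every day 3 sum was above every other sum, and the log2 fold change from day 0 to day 3 was 2.56 ± 0.13 (SE; edgeR adjusted p = 9.99e-11). In Matrigel the sums went from 123, 96.4, 123 and 116 CPM to 929, 741, 857 and 948 CPM, a log2 fold change of 2.92 ± 0.13 (edgeR adjusted p = 1.48e-11), and stood at 576 and 603 CPM on day 5. The CPM of 4T1, here and below, lack the TMM scaling of the tumour sums. In the 4T1 cells of the same pools Rpl29 went from 242 to 1209 and then 905 CPM. Relative to the module this was 2.06 in 4T1 and 2.40 and 2.36 in the tumour cells. Of its 50-base end words 69.7% are shared with 44 other genes.

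Rps28 moved the other way and back. It encodes a small protein of the small subunit (chr17:33819027-33824562, minus). In collagen it was at 831, 956, 1011 and 991 CPM on day 0, 458, 415, 456 and 328 CPM on day 3, and 1048, 946 and 936 CPM on day 5. All day 3 sums were below all sums of the other days. The log2 fold changes were -1.19 ± 0.14 and 1.24 ± 0.15 (SE; edgeR adjusted p = 1.25e-05 and 0.000116). In Matrigel it fell from 696, 709, 844 and 621 CPM to 467, 450, 524 and 326 CPM and rose to 1071 and 1151 CPM. There the log2 fold changes were -0.70 ± 0.14 and 1.33 ± 0.17 (edgeR adjusted p = 0.000677 and 0.000233, the latter 0.095 without mouse 2). In 4T1 it went from 1856 to 586 and back to 1724 CPM.

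**Figure D3:**
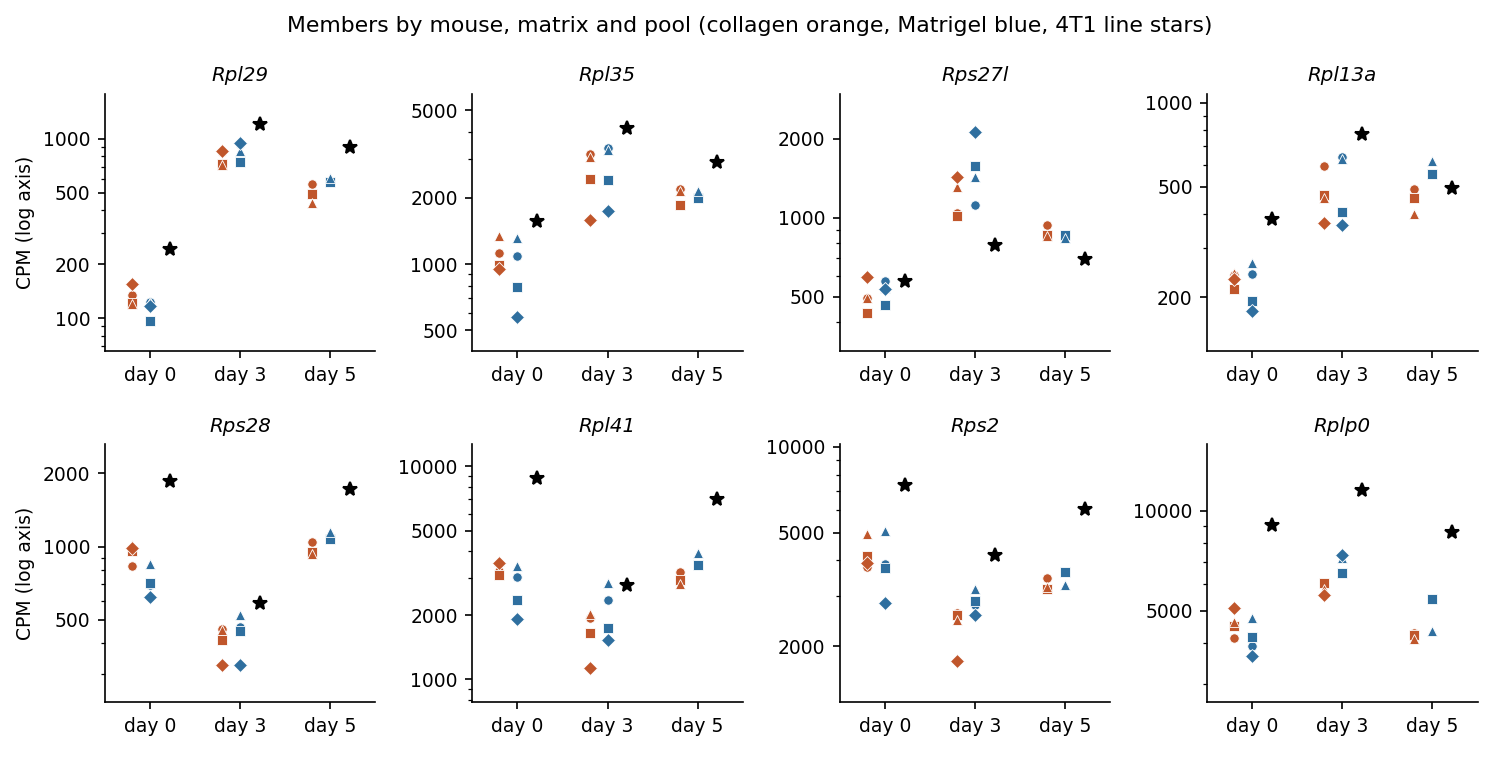
CPM (log axis) of 8 members by day, with 1 point per mouse and gel (collagen orange, Matrigel blue) and a star for the 4T1 cells of each pool. The CPM of the tumour sums are TMM-scaled and those of 4T1 are not. Rpl29 is higher and Rps28 lower on day 3 than on day 0 in every sum of tumour cells and in 4T1, while the 4T1 star of Rps27l lies below all day 3 tumour sums.

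Rpl41, the gene of the shortest ribosomal protein, had a similar course (chr10:128548114-128549305, minus). In collagen it stood at 3240, 3078, 3599 and 3536 CPM on day 0, 1948, 1653, 2022 and 1128 CPM on day 3, and 3198, 2931 and 2799 CPM on day 5. Its day 3 sums did not overlap the others, and relative to the module it fell by 1.18 ± 0.11 and then rose by 1.05 ± 0.12 (log2 ± SE; edgeR adjusted p = 9.01e-07 and 3.79e-05). In 4T1 it went from 8827 to 2776 and then 7040 CPM. In Matrigel its sums overlapped between days 0 and 3 (1918 to 3417 and 1534 to 2829 CPM), and relative to the module it changed by -0.91 ± 0.11 and 0.99 ± 0.13 (edgeR adjusted p = 4.46e-06 and 0.000421). Per total UMIs the changes from day 0 to day 3 were -0.99 ± 0.20 in collagen and -0.34 ± 0.20 in Matrigel (edgeR adjusted p = 0.00195 and 0.19), and the former did not pass without the cells of the 4T1 cluster (-0.59, 0.107).

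Rps2, Rps18, Rplp1, Rps29 and Rpl38 also fell below the module in collagen from day 0 to day 3. Rps2, near the mRNA entry channel, fell from day 0 to day 3, by a log2 change of -0.83 ± 0.15 in collagen and -0.44 ± 0.15 in Matrigel (SE; edgeR adjusted p = 0.000834 and 0.0274, the latter 0.12 without mouse 1 and 0.14 without mouse 2 or 3). Its collagen sums were 3788, 4131, 4933 and 3916 CPM and then 2617, 2573, 2475 and 1782 CPM, with no overlap. Rps18 fell by 0.67 ± 0.20 (log2 ± SE) in collagen (edgeR adjusted p = 0.0219, from 0.082 to 0.17 without mouse 1, 2 or 3), and Rplp1, a stalk protein, fell by 0.47 (adjusted p = 0.0247, from 0.056 to 0.16 without any 1 mouse). Without the cells of the 4T1 cluster these calls of Rps18 and Rplp1 in collagen and of Rps2 in Matrigel were lost (edgeR adjusted p = 0.171, 0.469 and 0.12). In 4T1 the CPM of Rps2 went from 7323 to 4174, that of Rps18 from 2514 to 2080 and that of Rplp1 from 7625 to 6656. From day 3 to day 5 Rps29 rose by 0.72 in both collagen and Matrigel (edgeR adjusted p = 0.00335 and 0.00743, and 0.11 to 0.24 without 1 of the mice that have day 5 sums).

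Among the members that rose above the module in both gels from day 0 to day 3 were also Rpl35, Rpl13a, Rpl27, Rps21 and Rps27l. Rpl35, beside the tunnel exit (chr2:39001580-39005624, minus), stood at 1127, 996, 1341 and 948 CPM in collagen on day 0 and at 3170, 2436, 3057 and 1581 CPM on day 3. The groups did not overlap, and the log2 fold change was 1.22 ± 0.25 in collagen and 1.53 ± 0.25 in Matrigel (SE; edgeR adjusted p = 0.00201 and 0.000118, the former 0.053 without mouse 2). Its end words are shared to 96.0%. Rpl13a, with no shared end word, went from 241, 214, 244 and 233 CPM to 595, 466, 456 and 369 CPM in collagen, again with no overlap, by a log2 fold change of 1.02 ± 0.18 (edgeR adjusted p = 0.000679). In 4T1 the CPM of Rpl35 went from 1565 to 4147 and that of Rpl13a from 383 to 773.

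Rps27l changed less in 4T1 than in the tumour cells. It encodes a variant of Rps27 (chr9:66946086-66949516, plus), and no end word is shared with another gene. In collagen it stood at 495, 435, 492 and 596 CPM on day 0, 1041, 1015, 1310 and 1436 CPM on day 3, and 936, 859 and 851 CPM on day 5. In Matrigel it stood at 575, 465, 537 and 535 CPM, then 1115, 1579, 1431 and 2114 CPM, and then 856 and 835 CPM. No day 0 sum reached any later sum. The log2 fold change from day 0 to day 3 was 1.25 ± 0.16 in collagen and 1.56 ± 0.16 in Matrigel (SE; edgeR adjusted p = 3.36e-05 and 8.5e-07). The fall to day 5 of 0.88 in Matrigel passed (edgeR adjusted p = 0.0268, 0.35 without mouse 2 and 0.34 without mouse 3), and in collagen the value of -0.44 did not (0.27). In 4T1 it went from 572 to 784 and then 695 CPM, a change relative to the module of 0.20 from day 0 to day 3, against 1.11 and 1.04 in the tumour cells. Rps21 also differed in this way, with a change relative to the module of -0.12 in 4T1 against 0.37 in collagen and 0.65 in Matrigel.

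Its parent gene Rps27 moved much less. Rps27 stood at 1229, 1276, 1172 and 1477 CPM in collagen on day 0 and 1716, 1633, 1437 and 1420 CPM on day 3, a change of 0.10 relative to the module. Rpl22l1, a variant of Rpl22, stood at 448, 528, 453 and 483 CPM in collagen on day 0 and 738, 795, 728 and 308 CPM on day 3. In Matrigel it went from 376, 432, 458 and 288 CPM to 972.5, 973, 1166 and 244 CPM. Mouse 4 was lower on day 3 than on day 0 in both gels while the other 3 mice were higher. The Matrigel change of 1.11 ± 0.34 passed (log2 ± SE; edgeR adjusted p = 0.0144, about 0.1 without mouse 1, 2 or 3), and the collagen change did not (0.40).

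Set against 4T1, the departures of the 80 members ran in parallel. Across members, the change relative to the module from day 0 to day 3 in collagen and the same change in 4T1 had a Pearson r of 0.841 (Spearman rho 0.682), and 57 members had the same sign. In Matrigel r was 0.767 (rho 0.583, 52 with the same sign). From day 3 to day 5 r was 0.782 in collagen (56 with the same sign) and 0.691 in Matrigel (55). Without Rpl29, Rps28 and Rpl41 r was 0.714, 0.604, 0.670 and 0.528 in the same order. These values describe genes that share pools and library preparation, and the members are not replicates. The tumour changes used all cells compared, including those that clustered with 4T1. Such cells gave up to 30.65% of the UMIs of a sum, in collagen mouse 4 on day 0. Their part in r was not tested.

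**Figure D4:**
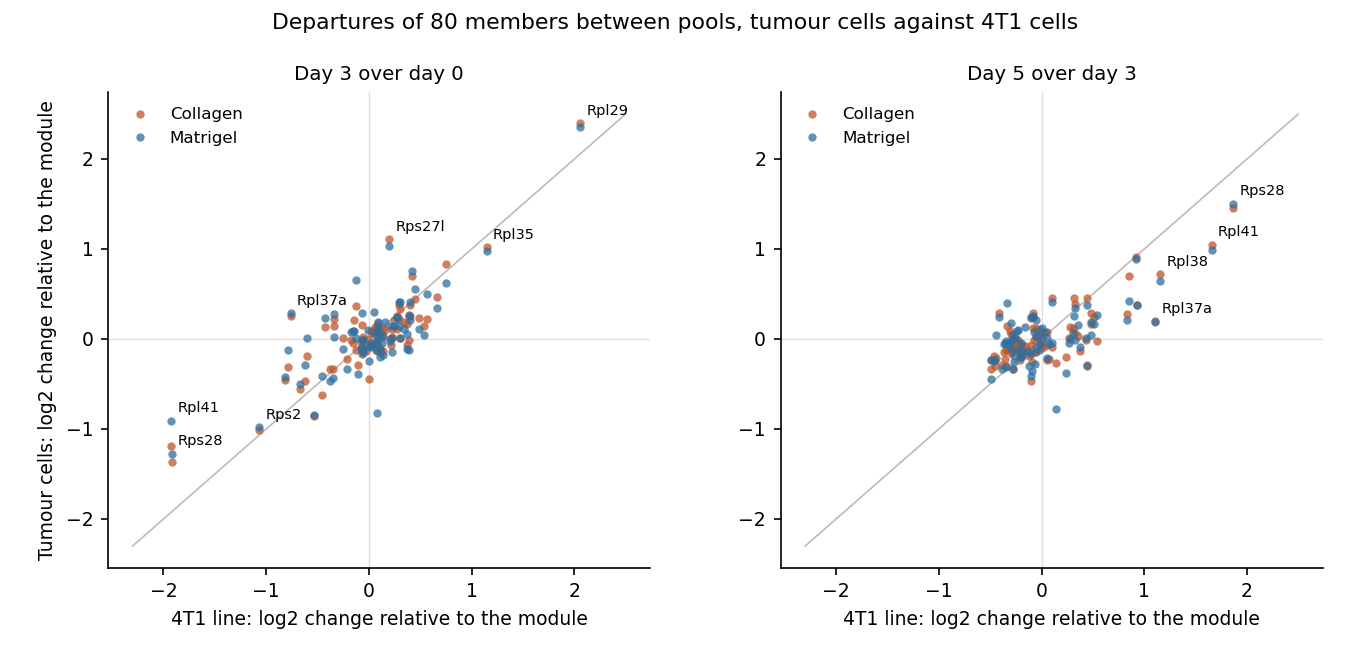
Change of each of 80 members relative to the module in tumour cells (vertical axis, log2) against the change in the 4T1 cells of the same pools (horizontal axis, log2). The tumour sums include the cells that clustered with 4T1. Rpl29 lies far up in both and Rps28 and Rpl41 far down from day 0 to day 3, and Rps27l lies above the others at a 4T1 change of 0.20.

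Rpl37a, named here after its values were seen, moved in opposite directions in tumour cells and 4T1. In Matrigel it rose from 1615, 1600, 2218 and 1079 CPM to 3188, 3103, 3394 and 1954 CPM (log2 fold change 0.84, edgeR adjusted p = 0.00329), where only mouse 4 on day 3 lay below a day 0 sum. In 4T1 it went from 3070 to 2169 CPM, and relative to the module the changes were 0.29 in Matrigel, 0.25 in collagen and -0.76 in 4T1. Within the pools, 4T1 differed from the tumour cells in single members, chosen here by their values. Relative to the module 4T1 was lower in Rpl7l1 (-1.69, -0.90 and -1.04 on days 0, 3 and 5) and Rps27l (-0.80, -1.49 and -1.05), and higher in Rps12 (0.73, 0.84 and 0.49) and Rpsa (0.67, 0.55 and 0.66).

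The reference members with other known roles rose in Matrigel without departing far from the module. Rplp0 stood at 3916, 4158, 4759 and 3658 CPM on day 0 and 6498, 6504, 7221 and 7343 CPM on day 3, with no overlap (log2 fold change 0.74 ± 0.10, edgeR adjusted p = 1.52e-05). It fell again by 0.50 to day 5 (adjusted p = 0.0383, from 0.095 to 0.52 without mouse 1, 2 or 3 and 0.0581 without the cells of the 4T1 cluster). Rpl5 and Rpl11, which bind Mdm2 when ribosome assembly fails, rose by 0.39 ± 0.09 and 0.58 ± 0.13 (edgeR adjusted p = 0.00292 and 0.00152). Rps6, the substrate of S6 kinase, and Rpl3 and Rpsa, also known as the laminin receptor, rose by 0.36, 0.55 and 0.56 (adjusted p = 0.0428, 0.0151 and 0.0329), and each of these 3 calls was lost without mouse 1, 2 or 3 (0.06 to 0.17). In collagen only Rplp0 among these 6 was called from day 0 to day 3 (0.33 ± 0.10, adjusted p = 0.0257, and 0.072 to 0.21 without mouse 1, 2 or 3).

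Members with and without a tract exactly at the annotated start lay on both sides of the module. Of those with a tract exactly at the start, Rpl35 and Rps21 changed by 1.02 and 0.37 relative to the module in collagen from day 0 to day 3, and Rps18 and Rpl38 by -0.86 and -0.56. Of those without it, Rpl13a and Rps27l changed by 0.83 and 1.11, and Rps28 and Rpl41 by -1.37 and -1.18. Coding length was weakly related to the change (Spearman rho across 80 members -0.304 in collagen, -0.353 in Matrigel and -0.092 in 4T1). For the share of end words held in common with other genes rho was -0.052, 0.005 and 0.113.

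Tumour clusters differed widely in their share. These clusters were built on the most variable genes of the same cells, with no member set aside beforehand, so the values are a description. The lowest share was 6.22%, in a cluster of 29 cells led by the cornified envelope genes Sprr1a and Lce3c. The highest was 33.3%, in a cluster of 43 cells led by Klk8, Aldh1a3 and Serpinb2. A cluster of 303 cells led by Krt5, Acta2 and Tagln, genes of basal and myoepithelial cells, stood at 22.5%. Clusters led by stress and immediate early genes, one with Hspa1a, Atf3 and Egr1 and one with Cyr61, Dusp1 and Ctgf, stood at 11.1% and 12.3%. Rps27l was highest, at 1843 CPM, in a cluster of 410 cells led by the p53 targets Mdm2 and Ccng1, whose share was 19.6%. It also stood at 1604 CPM in cluster 20, led by Hist1h1b, and in cluster 22, led by Klk8. In cluster 3, led by Gm567 and Cd34, it was at 1594 CPM.

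**Figure D5:**
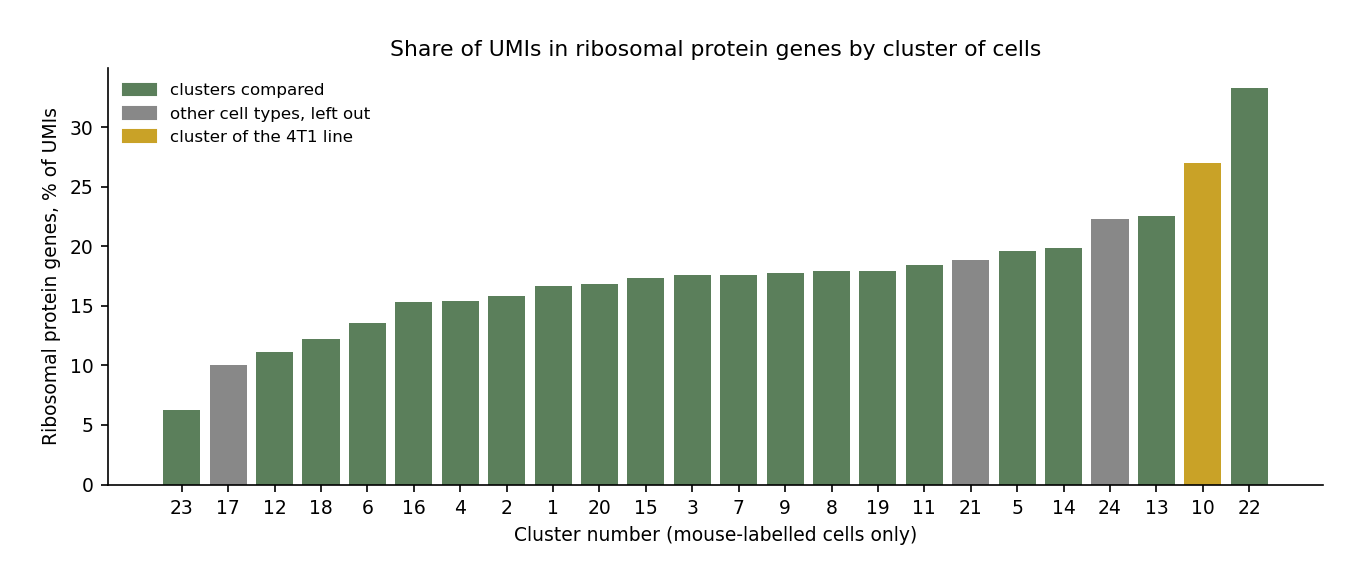
Share of UMIs in ribosomal protein genes (percent, vertical axis) of the mouse-labelled cells of each cluster (horizontal axis, by cluster number), ordered by the share. Bars run from 6.22% in cluster 23, led by Sprr1a, to 33.3% in cluster 22, led by Klk8, and mouse-labelled cells in the 4T1 cluster stand at 27.04%.

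Among ribosomal protein genes that the symbol rule does not take, Rpl36al, a copy of Rpl36a, had a log2 fold change of 1.69 ± 0.11 from day 0 to day 3 in collagen (SE; edgeR adjusted p = 3.28e-09), and its log2 change in 4T1 was 1.78. Rps27rt fell by 0.65 ± 0.17 in collagen (edgeR adjusted p = 0.0106), and its change in 4T1 was -0.41.

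Genes that build the ribosome had lower medians on day 3 than on day 0 in both gels. Of 26 assembly factors and nucleolar genes, 10 fell and 0 rose in collagen (median -0.43, all genes -0.02), where 10.2% of all genes fell. In Matrigel 16 fell and 0 rose (median -0.60, all genes -0.01), where 19.7% of all genes fell. With the mouse block 18 and 22 fell. In 4T1 the median of the same list was 0.35 over these days. Wdr43, a factor for the small subunit, changed by -1.05 ± 0.14 in collagen and -1.25 ± 0.15 in Matrigel, and Nop58, a core protein of box C/D particles, by -1.004 ± 0.22 and -1.24 ± 0.22 (log2 ± SE; edgeR adjusted p = 5.97e-05, 2.91e-06, 0.00272 and 0.000201). In 4T1 Nop58 went from 406 to 612 CPM. On day 0, 3 of the 26 were lower in collagen than in Matrigel and 0 higher (median -0.36, with 2.88% of all genes lower), or 12 lower with the mouse block. The list's median was -0.22 between the matrices on day 3 and -0.19 from day 3 to day 5 in Matrigel, where the ribosomal protein genes had medians of -0.15 and -0.18.

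Of 11 RNA polymerase I genes, which transcribe ribosomal RNA, 4 fell and 0 rose from day 0 to day 3 in collagen (median -0.29) and 7 fell and 0 rose in Matrigel (median -0.56), against the same 10.2% and 19.7% of all genes. With the mouse block 6 and 7 fell and 1 rose in each gel, and the median of the list in 4T1 was -0.01. The initiation factor Rrn3 changed by -1.24 ± 0.18 in collagen and -1.25 ± 0.18 in Matrigel (edgeR adjusted p = 0.000109 and 3.38e-05). In 4T1 Rrn3 also fell, from 29.32 to 17.45 CPM, and stood at 34.14 CPM on day 5. Taf1d changed by -1.045 ± 0.15 and -1.31 ± 0.15 (edgeR adjusted p = 0.000109 and 3.04e-06), and in 4T1 it rose from 254.5 to 481.7 CPM. Of 17 regulators, 1 rose and 5 fell in collagen (median -0.32) and 2 rose and 6 fell in Matrigel (median -0.17). Mtor rose by 0.62 ± 0.15 in collagen and Tsc2, an inhibitor of mTOR signalling, by 0.87 ± 0.18 in Matrigel (log2 ± SE; edgeR adjusted p = 0.00551 and 0.000683). Myc changed by -1.22 ± 0.17 and -1.97 ± 0.17, and Larp1 by -0.51 ± 0.10 and -0.84 ± 0.10 (adjusted p = 5.9e-05, 1.08e-07, 0.00127 and 3.64e-06). Both were also lower in collagen than in Matrigel on day 0 (Myc -0.74 ± 0.16, Larp1 -0.50 ± 0.10, adjusted p = 0.0115 and 0.00653). In 4T1 Myc went from 131 to 147 and then 87.8 CPM.

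Of 20 translation factor and related genes with tracts in the files, 0 rose and 2 fell from day 0 to day 3 in collagen, and 1 rose and 2 fell in Matrigel (medians -0.10 and -0.01). Pabpc1, the poly(A) binding protein, changed by -1.20 ± 0.18 in Matrigel (edgeR adjusted p = 4.4e-05), and its CPM in 4T1 went from 1879 to 935. The mitochondrial ribosomal proteins, encoded by a separate set of genes, had positive medians over these days (0.35 in collagen, 0.49 in Matrigel and 0.12 in 4T1). Of 78, 25 rose and 1 fell in collagen, and 42 rose and 2 fell in Matrigel, where 9.33% and 19.4% of all genes rose. The part of the pool in all these day comparisons was not tested, beyond the 4T1 values given beside them.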

How the data were processed

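The authors deposited raw, not normalized UMI counts for every gene in every cell, with a cell annotation that names day, mouse and matrix. MULTI-seq barcoding and the 10x Genomics 3' v2 kit were used, per the labels' protocols. Per the submitters' processing notes, the tools were Cell Ranger 3.0.2 and Scanpy 1.4.4 on GRCm38/mm10 (roles, annotation release and strand setting: not given in the sources used). There were 0 unused sample columns. The first day is called D1 in the annotation and was taken as day 0 of the labels.

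Cells were clustered with Scanpy 1.11.5 (Leiden), and no doublet caller was run. Each of the 3 pools holds 4T1 and mouse-labelled cells, with 4 mice on days 0 and 3 and no cell labelled mouse 4 on day 5. Sums of at least 20 cells were tested in 1 fit of 6 groups with edgeR 4.0.16 (TMM, filterByExpr, glmQLFit), adjusted p under 0.05 in all sums; scripts were tested on simulated data. CPM are counts scaled to a fixed total per sum. For members in the tumour sums that total was also adjusted by TMM factors from 0.8594 to 1.116, and for 4T1 it was not. The log2 changes of 4T1 use a pseudocount of 5 CPM. Members and lists were chosen with earlier results of these data known. Named were the members furthest from the median of the members in each comparison (up to 5 each way, mean of at least 20 CPM), the variant genes, 6 reference members and, of lists with at least 3 calls, up to 4 genes by p. Labels give the same 4 animals in both gels and all pools, except that no day 5 cell is labelled mouse 4. Deviations of sums from their group means correlated at a median of 0.304 for the same mouse and -0.108 for different mice. RefSeq promoters, GENCODE vM21 transcripts (all 82 members matched), DESeq2 1.42.0 and R 4.3.3 were also used. Alternatives were the mouse block, scaling, filter, cell sets and leaving out each mouse; 2 of the cell sets (without clusters of few UMIs, without the 4T1 cluster) were chosen after seeing the data. Some results are not reported here.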

Additional observations from a re-analysis of the deposited data

Results flagged for a closer look

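In 176 groups of 4 sums tested for the named members, 8 held a sum far from the other 3 (by the gap to the nearest over the range, Dixon's 95% level), and chance gives about 1 in 20. In collagen on day 0 these were Rpl31 at 939 CPM in mouse 3 (others 738.9 to 762.3), Rplp1 at 4197 CPM in mouse 4 (others 2919 to 3004) and Rps6 at 1514 CPM in mouse 3 (others 1303 to 1336). Mouse 4 is also the day 0 collagen sum with the largest share of UMIs from the 4T1 cluster, and Rplp1 stood at 7625 CPM in the 4T1 cells of that pool. In collagen on day 3 they were Rpl13 at 5916 CPM in mouse 1 (others 5226 to 5274) and, in mouse 4, Rpl22l1 at 308.4 CPM (others 728.2 to 794.7), Rps18 at 641.1 CPM (others 969.7 to 1022) and Rps2 at 1782 CPM (others 2475 to 2617). In Matrigel on day 3 it was Rpl13 at 5822 CPM in mouse 2 (others 6399 to 6514).

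The matrix difference in the ribosomal share differed between the days. Collagen minus Matrigel changed by -4.69 percentage points from day 0 to day 3 and by -4.75 points from day 0 to day 5, in all mice measured on both days (4 and 2). The exact permutation p-values were 0.125 and 0.5, the smallest these numbers of mice allow.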

How the results depend on the processing

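For the shares, 76 of 79 alternative values kept direction. The side of the threshold could not change, because with these numbers of mice no share comparison could pass after adjustment. Leaving out a mouse gave -0.45 to 1.00 points for day 3 over day 0 in collagen, and the range of 4T1 over the pools (6.6 points) was 6.93 as a mean over cells and 6.41 without mitochondrial UMIs. Paired by mouse (replicate block), none of the 7 share comparisons passed, and none could, since 4 pairs give an exact sign-flip p of 0.125 at the least. Of 173 alternative member counts, 120 stayed within 1.5 times. With the mouse as a replicate block, members called numbered 20, 3, 36, 36 and 15 (collagen over Matrigel on days 0 and 3, day 3 over day 0 and day 5 over day 3 in collagen, day 5 over day 3 in Matrigel), 10 and 31 for the changes of the matrix difference, and relative to the module 9, 1, 34, 24 and 18 in the order of the first 5. DESeq2 gave 5, 1, 11 and 8 (days 0 and 3 between matrices, day 5 over day 3 in collagen and Matrigel), and 1 and 3 for the changes of the matrix difference. For day 0 between matrices the count was 8 without TMM, 0 without the filter on low counts, 1 with cells of at least 5000 UMIs, 1 without the clusters of few UMIs and 0 without the cells of the 4T1 cluster, and day 5 over day 3 in collagen had 3 without the filter. Leaving out each mouse gave 0 to 0 on day 0, 6 to 32 and 1 to 12 in collagen (day 3 over day 0, day 5 over day 3), 39 to 66 and 0 to 12 in Matrigel, and relative to the module 0 to 3 on day 0, 8 to 25 and 3 to 11 in collagen and 1 to 10 for day 5 over day 3 in Matrigel. The cause was not tested, and no share of all genes called is given for these settings. Of 38 calls of named members, 0 were lost with the block or DESeq2, none reversed under any setting run, and 17, 22, 19 and 4 were lost without mice 1, 2, 3 and 4; 9 were lost without the filter, 7 without TMM, 7 without the cells of the 4T1 cluster, 4 without clusters of few UMIs, 4 with cells of at least 5000 UMIs and 2 with all mouse-labelled cells. Day 5 rests on 3 collagen and 2 Matrigel sums, and counts of members with shared end sequences depend on the authors' counting.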
